A study of Mus musculus with 14 samples.

Results

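The miR-183 cluster is a group of 3 microRNA (miRNA) hairpins, those of miR-183, miR-96 and miR-182, that lie close together on the genome, and it is described here across cell populations of the mouse small intestinal epithelium. Its members were taken by name from the deposited table, as the entries of these hairpins that carry no suffix for a shifted start. The rule gave 6 entries, the 5p and the 3p arm of each hairpin, of 534 such entries in the table. The results turn on the 3 5p arms, which the table lists as mmu-mir-182-5p, mmu-mir-183-5p and mmu-mir-96-5p and which are written below as miR-182-5p and so on. A further 26 entries of the same hairpins carry a shift suffix and were used as a readout apart from the rule.

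The libraries are small RNA libraries made from total RNA with a TriLink CleanTag kit, from small intestine of C57BL/6J mice with a Sox9-eGFP reporter, in which green fluorescence follows Sox9. The series separated intestinal crypt cells by this fluorescence. There were 5 groups, labelled High, Low, Sublow, Negative (3 libraries each) and Non-sorted (2 libraries). All groups carry the reporter by their titles, so no group without it is part of the comparison. Earlier work with this reporter placed enteroendocrine cells in High, crypt stem cells in Low, dividing progenitors in Sublow and mature cells in Negative. The sources used here give no age, sex, gate or count of animals, so every p-value below weighs a difference only against the spread between libraries, which may be technical.

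The cluster is known for its high level in sensory cells, such as photoreceptors, hair cells of the inner ear and olfactory neurons, and mutations in the seed of miR-96 cause hearing loss in mice and people. Its hairpins are processed from a common primary transcript. Each mature miRNA guides an Argonaute protein to messenger RNAs that pair with its seed, bases 2 to 8, so a miRNA that starts at another base has another seed.

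The mature 5p arms are shown because their seeds are near-identical but not equal, and the last line shows the frequent form of miR-183-5p that lacks the first base. Capitals mark the seed of each form, read 5′ to 3′.
miR-183-5p: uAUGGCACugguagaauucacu
miR-96-5p: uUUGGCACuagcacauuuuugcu
miR-182-5p: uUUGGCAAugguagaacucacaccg
miR-183-5p read from base 2: aUGGCACUgguagaauucacu
All sequences are from RefSeq for the GRCm38.p6 assembly. The seeds of miR-182-5p and miR-183-5p are identical at 5 of 7 bases, and the seed of miR-96-5p shares 6 of 7 bases with each of them. Past the seed, miR-182-5p resembles miR-183-5p more than miR-96-5p. Lined up from the first base, miR-182-5p is identical to miR-183-5p at 18 of 22 bases and to miR-96-5p at 12 of 23. Among 1679 mature mouse names in RefSeq, no other miRNA has the seed of miR-182-5p or of miR-183-5p, and miR-1271-5p, which has 0 entries in the deposited table, has that of miR-96-5p. The seed of the form of miR-183-5p that starts at base 2, UGGCACU, is the seed of no annotated mature name, and it lies at bases 3 to 9 of both miR-183-5p and miR-96-5p.

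The hairpins lie on the minus strand of chromosome 6 within 3820 bases, in the order Mir183, Mir96, Mir182. In GRCm38.p6 the mature 5p arms map to chr6:30169711-30169732 (miR-183-5p), chr6:30169506-30169528 (miR-96-5p) and chr6:30165962-30165986 (miR-182-5p). Mir183 and Mir96 are 116 bases apart, and Mir182 follows 3453 bases beyond Mir96. The GENCODE annotation of this assembly has 0 other genes overlapping the span, which is intergenic. Its nearest neighbours are Nrf1, a protein-coding gene that ends 12459 bases away, and the long noncoding RNA gene Rncr4 at 3155 bases, both on the plus strand. The hairpin of miR-183 is shown because both of its arms have shifted forms in the table, and its mature arms are in capitals.
Mir183: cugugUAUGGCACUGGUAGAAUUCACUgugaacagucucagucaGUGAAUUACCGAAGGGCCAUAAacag

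Values are reads per 1000000 reads (RPM) over the miRNA entries, so they are shares of a library's miRNA reads, not of molecules, and a rise of an abundant miRNA lowers all others. Depth was estimated at 1.89 to 16.4 M reads a library (M, 1000000) from the steps between low values. The smallest listed value, 0.62 to 5.55 RPM, equals about 10 reads, so an entry listed at 0 may have a few reads. Markers fitted the labelled tissue, in that all 9 miRNAs of the intestinal epithelium list were present, summing to 201521 to 597473 RPM. Their sum differed between groups, at 201521 to 235198 RPM in High and 221481 to 250054 in Low libraries. It was 437099 to 456878 RPM in Sublow, 584881 to 590153 in Negative and 511871 to 597473 in Non-sorted libraries. Markers of other cell types summed to at most 213 RPM for haematopoietic (5 markers, 1 of them at 0 in all libraries), 95.7 for mesenchymal (6, of which 1 had no entry and 1 was at 0) and 109 for neuronal cells (4, of which 1 had no entry and 1 was at 0). The endothelial marker reached at most 3.83 RPM, and both erythroid markers with an entry were at 0.

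miR-182-5p was the most abundant member and fell stepwise with Sox9-eGFP fluorescence. Its level was 36201, 39315 and 33101 RPM in the High libraries and at 12485, 14436 and 13448 RPM in the Low libraries. In Sublow cells it was at 8342, 9498 and 9489 RPM, in Negative cells at 4029.6, 4363 and 4307 RPM, and in Non-sorted cells at 5270.0 and 6219 RPM. The libraries of neighbouring groups did not overlap at any step of the order High, Low, Sublow, Non-sorted, Negative. Of the 588 entries that passed the filter on low values (at least 10 RPM in at least 3 libraries), 16.3% did not overlap in the first of these steps in the same direction, 34.9% in the second, 33.3% in the third and 19% in the last. Among the 534 entries without a suffix, miR-182-5p ranked 6 to 7 in High libraries, 22 to 24 in Low libraries and 24 to 28 in Sublow libraries. In the Negative libraries it ranked 26 to 27 and in the Non-sorted libraries 25 to 29. It thus belonged to the most abundant miRNAs of High cells, and remained an abundant miRNA in every other population.

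miR-183-5p showed the same order at a lower level. Its RPM was 3291, 3479 and 3391 in High libraries and 1211, 1093 and 1274 in Low libraries. It was 894, 779 and 924 in Sublow libraries, 374, 365 and 463 in Negative libraries, and 513 and 559 in Non-sorted libraries. Again no neighbouring groups overlapped. Of the 588 entries, 29, or 4.93%, showed the order High, Low, Sublow, Negative without overlap at any step, and both members were among them. Together the annotated and shifted entries of the cluster made up 4.18% ± 0.32 of all miRNA RPM in High cells, 1.53% ± 0.091 in Low cells, 1.04% ± 0.067 in Sublow cells and 0.486% ± 0.020 in Negative cells (SD, n = 3 each). miR-182-5p alone held 85.7 to 88.9% of that sum in every library.

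**Figure D1:**
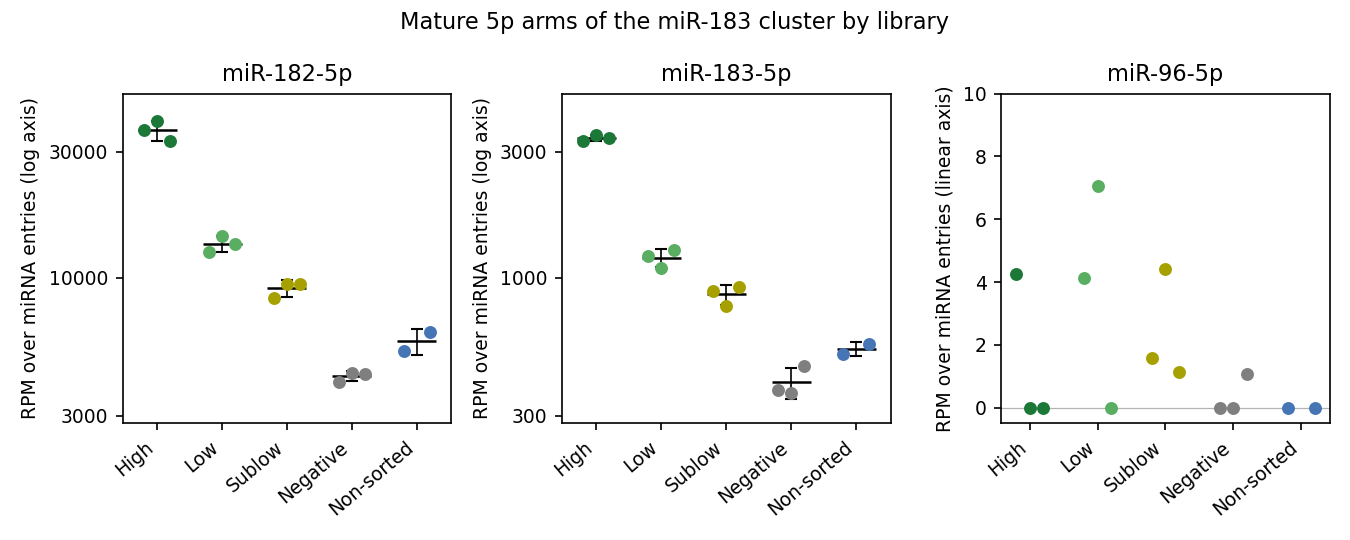
RPM over miRNA entries of miR-182-5p and miR-183-5p (log axes, with group mean and SD as bars) and of miR-96-5p (linear axis, no means), 1 point per library. For miR-182-5p and miR-183-5p the High libraries lie above all others (33101 to 39315 and 3291 to 3479 RPM), while miR-96-5p does not exceed 7.06 RPM.

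The High population stood apart from each other sorted population in both tested members. miR-182-5p averaged 36206 ± 3107 RPM in High against 13456 ± 976 in Low cells (SD, n = 3 each), a ratio of means of 2.69. On the log2(RPM + 1) scale the difference was 1.43 (SE 0.096, adjusted p = 1.39e-06, limma with Benjamini-Hochberg adjustment over all 588 entries). miR-183-5p averaged 3387 ± 94.0 RPM against 1193 ± 91.8 (SD, n = 3 each), a ratio of 2.84, and differed by 1.51 (SE 0.11, adjusted p = 3.44e-06, limma). Both members were thus higher in High than in Low cells by nearly the same amount. In this comparison 7.99% of all tested entries were higher in High and 20.1% lower (47 and 118, or 81 and 70 after median-ratio rescaling, which moved the median entry by 0.30 on the log2 scale). The cluster therefore went against the larger group of changed entries on the deposited scale.

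The same contrast with dimmer cells was larger. Against Sublow cells the ratio of means was 3.97 for miR-182-5p, a log2 difference of 1.99 (SE 0.096, adjusted p = 1.68e-08, limma). For miR-183-5p it was 3.91, a log2 difference of 1.97 (SE 0.11, adjusted p = 7.86e-08, limma). Here 28.1% of all tested entries were higher in High and 22.4% lower (165 and 132, or 113 and 205 when scaled by a trimmed mean of log ratios). The members thus differed between High and Sublow cells in a direction that many other tested entries shared.

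Against Negative cells the ratio of means reached 8.55 for miR-182-5p, a log2 difference of 3.09 (SE 0.096, adjusted p = 2.19e-10, limma). It reached 8.45 for miR-183-5p, a log2 difference of 3.08 (SE 0.11, adjusted p = 5.20e-10, limma). Other scalings made these differences smaller, and all kept the calls. The difference was 2.54, 2.26 and 2.14 for miR-182-5p after median-ratio rescaling, a trimmed mean of log ratios and quantile normalization, and 2.53, 2.25 and 2.82 for miR-183-5p. On the deposited scale a higher value in High than in Negative cells was common, at 43.9% of tested entries (258, with 132 lower, or 193 and 172 after median-ratio rescaling and 156 and 193 with the trimmed mean of log ratios). In the test of any difference among the 4 sorted populations, which 72.3% of tested entries passed, miR-182-5p had the fourth smallest p of 588 (rank 4, F = 356, adjusted p = 1.08e-09, limma). miR-183-5p ranked 16 (F = 253, adjusted p = 2.91e-09, limma). In bulk libraries such as these, fewer cells with a miRNA and less of it per cell cannot be told apart.

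The lane labels moved with the groups, and no High library carries the lane label of a Sublow or a Negative library. Part of the High and Low libraries, 2 of each, are labelled with a combined lane, and between these the log2 difference was 1.44 for miR-182-5p and 1.52 for miR-183-5p. Which lanes were combined is not stated, so whether these libraries shared a lane with Sublow or Negative libraries is not known. With a lane term in the model the log2 difference between High and Negative cells was 3.02 for miR-182-5p and 2.94 for miR-183-5p. That term took the combined label as a single lane, and High replicate 3 was alone on lane 8. High and Negative were thus linked only through Low libraries, of which Low replicate 1 alone shared a label, lane 5, with a Negative library. Lane and group could therefore not be fully told apart for High cells. The endocrine marker miRNAs, miR-375-3p, miR-7a-1-5p and miR-7b-5p, fell in the same order as both members when summed. Their summed RPM was 151003 to 172443 in High, 82016 to 106946 in Low, 24003 to 25588 in Sublow and 2551 to 3634 in Negative libraries. Between High and Low cells, miR-375-3p alone of these markers passed the test. miR-7a-1-5p averaged 30279 RPM in High and 25905 RPM in Low cells, and miR-7b-5p 9772 and 8107 RPM. The part of these markers in the difference of the cluster was not tested.

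Below High, the steps were smaller and some depended on how libraries were scaled to each other. miR-182-5p averaged 9109.8 ± 665 RPM in Sublow cells (SD, n = 3), and Low exceeded Sublow by 0.56 on the log2 scale (SE 0.096, adjusted p = 8.00e-04, limma). miR-183-5p averaged 865 ± 76.4 RPM in Sublow cells (SD, n = 3), and Low exceeded Sublow by 0.46 (SE 0.11, adjusted p = 0.00747, limma). In this step 24.3% of entries were higher in Low and 10.4% lower (143 and 61, or 68 and 86 after median-ratio rescaling). After that rescaling, which moved the median entry by −0.38, the difference was 0.17 for miR-182-5p (adjusted p = 0.350, limma) and 0.067 for miR-183-5p (adjusted p = 0.773, limma). With a trimmed mean of log ratios, the value of miR-183-5p was −0.066 (adjusted p = 0.896, limma). Whether the step from Low to Sublow passed the test therefore depended on the scaling for both members. Between the libraries on lane 5, 1 of Low and 2 of Sublow, the log2 difference was 0.49 for miR-182-5p and 0.41 for miR-183-5p.

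Negative cells had the lowest level of both members. miR-182-5p averaged 4233 ± 178 RPM and miR-183-5p 401 ± 54.3 RPM in them (SD, n = 3 each). Low exceeded Negative by 1.67 in miR-182-5p (SE 0.096, adjusted p = 3.70e-08, limma) and by 1.58 in miR-183-5p (SE 0.11, adjusted p = 1.83e-07, limma). As 49.5% of entries were higher in Low than in Negative cells and 16.5% lower (291 and 97, or 131 and 136 after median-ratio rescaling), the direction was a common one. After that rescaling, which moved the median entry by −0.82, these differences were 0.79 and 0.70, both past the threshold.

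Sublow exceeded Negative by 1.10 in miR-182-5p (SE 0.096, adjusted p = 6.81e-06, limma) and by 1.11 in miR-183-5p (SE 0.11, adjusted p = 1.61e-05, limma), with 26.9% of entries higher and 8.67% lower (158 and 51, or 68 and 75 after median-ratio rescaling). Quantile normalization reduced the difference of miR-182-5p to 0.15 (adjusted p = 0.536, limma), and median-ratio rescaling reduced the differences to 0.62 and 0.63. The plot of differences between populations sets the deposited and the rescaled values side by side.

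**Figure D2:**
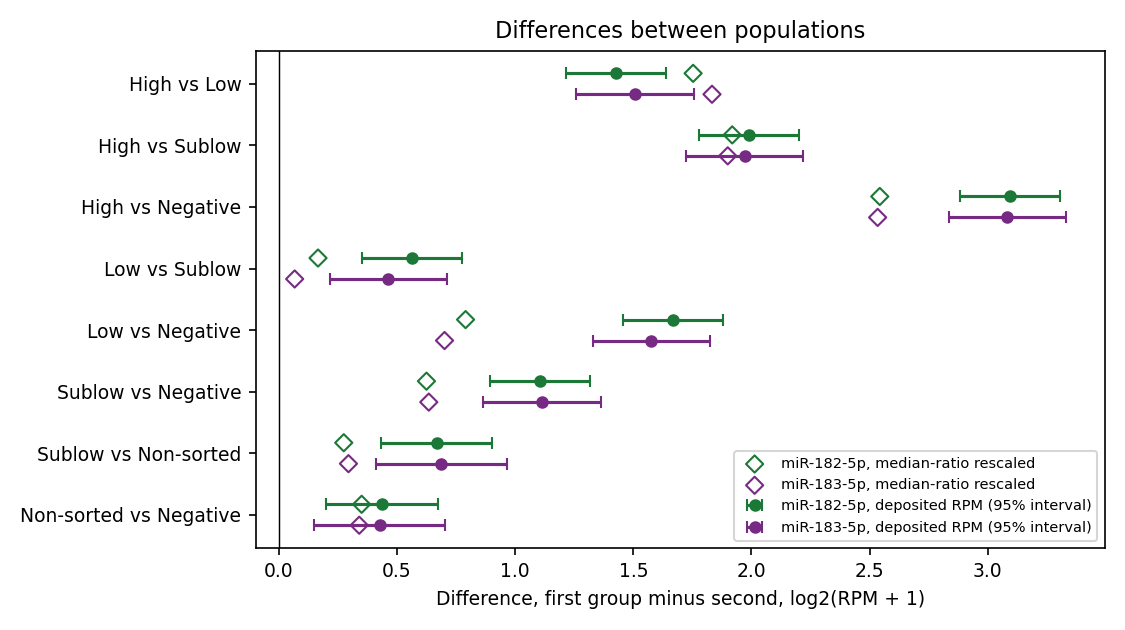
Differences between populations in log2(RPM + 1) for miR-182-5p (green) and miR-183-5p (purple), as fitted on the deposited RPM (filled points, bars are 95% intervals) and after median-ratio rescaling (open diamonds). The High comparisons stay at 1.43 or more under both scalings, while Low vs Sublow drops from 0.56 to 0.17 for miR-182-5p and from 0.46 to 0.067 for miR-183-5p.

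Non-sorted cells lay between Sublow and Negative cells in both members. miR-182-5p averaged 5745 ± 671 RPM and miR-183-5p 536 ± 32.5 RPM there (SD, n = 2 each). Sublow exceeded Non-sorted by 0.67 in miR-182-5p (SE 0.11, adjusted p = 0.00187, limma) and by 0.69 in miR-183-5p (SE 0.13, adjusted p = 0.00321, limma), where 16.7% of entries were higher and 7.31% lower (98 and 43, or 12 and 53 after median-ratio rescaling). Neither passed after median-ratio rescaling, at 0.27 and 0.29 (adjusted p = 0.209 each, limma). The contrast was added because these groups are neighbours in level.

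Non-sorted exceeded Negative by 0.44 in miR-182-5p (SE 0.11, adjusted p = 0.0466, limma), where 3.74% of entries were called, all higher (22 and 0, or 20 and 5 after median-ratio rescaling). This call was lost when any of 10 of the 14 libraries was left out. miR-183-5p was 0.43 higher in Non-sorted than in Negative cells (SE 0.13, 95% interval 0.15 to 0.70, adjusted p = 0.104, limma), which did not pass. It passed without Negative replicate 3, at 0.53 (adjusted p = 0.0325, limma). The call between Non-sorted and Negative cells thus depended on single libraries for both members.

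miR-96-5p was near the lowest value the table lists. Of the 14 libraries, 7 list it above 0, and the other 7 list it at 0. It was at 4.25 RPM in High replicate 1, at 4.13 and 7.06 in Low replicates 1 and 2, at 1.59, 4.42 and 1.14 in the Sublow libraries and at 1.06 in Negative replicate 3. These values correspond to about 15.0 to 57.0 reads. The listed libraries therefore come from every sorted population, and the High libraries do not stand out. In the libraries with miR-96-5p at 0, the smallest value listed for any entry was 1.32 to 5.55 RPM, so levels like those above could have gone unlisted in some of them. Where both were listed, miR-182-5p had 2045 to 8518 times the RPM of miR-96-5p, although the hairpins share a locus. miR-96-5p did not pass the filter, and no difference between populations was tested for it.

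The 3p arms, the other strands of the hairpins, were close to the floor too. miR-182-3p was listed in 7 libraries at up to 5.36 RPM, miR-183-3p in 3 at up to 3.05 RPM and miR-96-3p in 2 at up to 1.49 RPM. None passed the filter. Of the 6 entries given by the rule, 2 were therefore tested, miR-182-5p and miR-183-5p. The more frequent form of the 3p arm of miR-183 was the entry with the suffix +1, listed in 12 libraries and at 13.9, 28.6 and 19.0 RPM in High cells. Its mean in Low cells was 3.64 RPM, and it was higher in High than in Low cells by 2.35 (SE 0.79, adjusted p = 0.0445, limma). It passed the filter through the High libraries only, so a difference from the other groups was built in.

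The balance between the 2 abundant members was compared within libraries, where the scaling of a library has no part. The ratio of miR-182-5p to miR-183-5p was 10.7 ± 0.82 in High, 11.4 ± 1.60 in Low, 10.6 ± 1.46 in Sublow and 10.7 ± 1.33 in Negative cells (SD, n = 3 each). It was 10.7 ± 0.60 in Non-sorted cells (SD, n = 2). All sorted groups overlapped in this ratio, and the exact permutation test over the 369600 ways to assign the 12 sorted libraries to 4 groups of 3 gave p = 0.889. Replicate 2 had the highest ratio in all 5 groups, and within each of the 3 replicate numbers Low was above Sublow. On the log2 scale the largest gap between 2 group means was 0.099, between Low and Sublow, while the levels themselves differed between High and Negative by 3.09 and 3.08. Ratios with miR-96-5p were not computed, since it was at 0 in 7 libraries. Over the 14 libraries, the log2(RPM + 1) values of miR-182-5p and miR-183-5p had a Pearson r of 0.992, given as a description, since the points include several libraries of each group.

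The members differed in how often their reads began at another base than the annotated one. The suffix +1 was read as a start 1 base downstream, which the header of the table does not define. Shifted entries held 1.34% of the summed RPM of miR-182-5p in High, 1.26% in Low, 1.39% in Sublow and 1.36% in Negative cells, and the exact permutation test over the sorted libraries gave p = 0.494. For miR-183-5p the share was far larger. Among the 86 annotated entries with at least 100 RPM in all sorted libraries, miR-183-5p had the second largest mean shifted share (rank 2) and miR-182-5p one of the smallest (rank 78), with a median over these entries of 3.79%.

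The shifted share of miR-183-5p was also largest in High cells. It was 33.6, 32.9 and 32.8% in High libraries, 30.3, 31.7 and 28.5% in Low libraries, 26.0, 26.5 and 27.6% in Sublow libraries and 29.9, 28.3 and 26.7% in Negative libraries. The Non-sorted libraries had 28.8 and 28.9%. All High libraries lay above all other sorted libraries, whereas Negative cells overlapped both Low and Sublow cells, so the share did not follow the order of the levels. The exact permutation test over the sorted libraries gave p = 0.00299, the smaller of the 2 such tests run. Of the 86 entries, 8, or 9.3%, had a shifted share higher in every High library than in every other sorted library. A largest mean share in High cells, libraries overlapping or not, was common among these entries. miR-26a-2-5p, for example, had 5.03% in High, 4.65% in Low, 4.53% in Sublow and 4.48% in Negative cells. Others ran the other way, such as miR-375-3p with 11.0, 12.3, 12.8 and 13.3%. The permutation test was run for the 2 members only, so how many entries would pass it is not known. Between single pairs of groups, 3 libraries against 3 cannot give an exact permutation p below 0.1.

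**Figure D3:**
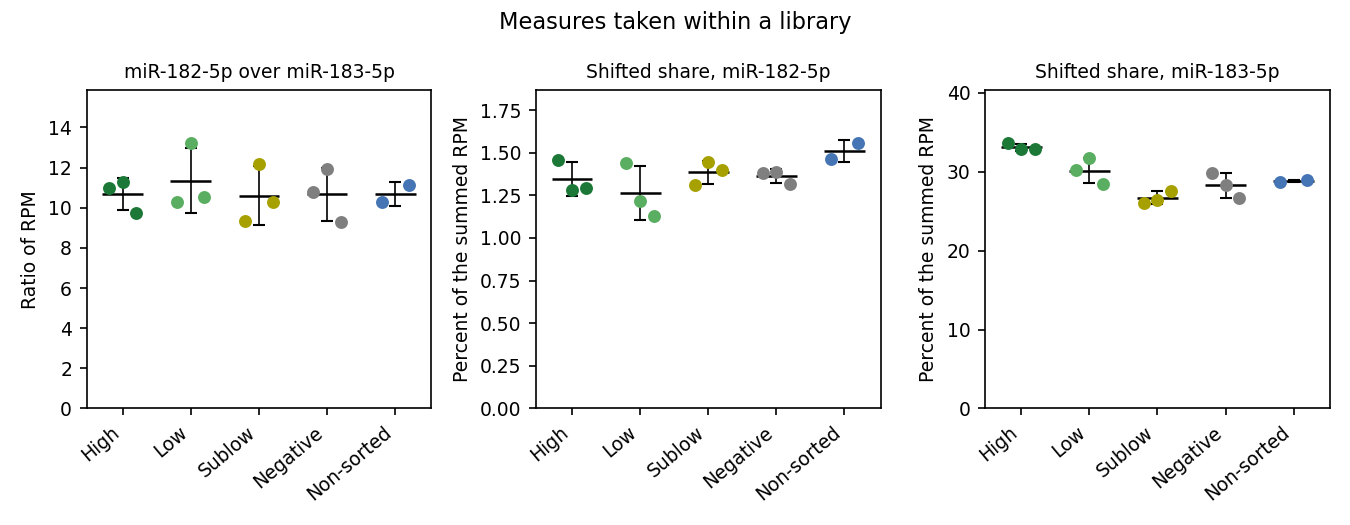
Measures that do not depend on the scaling of a library, 1 point per library with group mean and SD as bars: the ratio of miR-182-5p to miR-183-5p, and the percent of the summed RPM of each member that lies in shifted entries. The ratio lies near 11 in every group, while the shifted share of miR-183-5p is 32.8 to 33.6% in High libraries and 26.0 to 31.7% in the other sorted libraries.

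Nearly all of this share came from a single form, miR-183-5p with the suffix +1, whose sequence from base 2 and seed UGGCACU are shown above. It was at 1617, 1659 and 1607 RPM in High libraries and at 507, 491 and 492 RPM in Low libraries. In Sublow libraries it was at 305, 270.0 and 342 RPM, and in Negative libraries at 159.6, 142 and 162 RPM. It ran in the same order as the annotated form, with no overlap between the sorted groups. Its log2 difference between High and Low was 1.71 (SE 0.11, adjusted p = 1.01e-06, limma), and between High and Negative 3.39 (SE 0.11, adjusted p = 2.19e-10, limma). The High level of this form, 1628 ± 27.2 RPM (SD, n = 3), was above that of the annotated form in Low cells.

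The shifted forms of miR-182-5p were minor. The form with suffix +1 averaged 312 ± 25.6 RPM in High, 111 ± 15.7 in Low, 75.9 ± 9.62 in Sublow and 36.4 ± 2.03 in Negative cells (SD, n = 3 each), and differed between High and Low by 1.496 (SE 0.18, adjusted p = 9.26e-05, limma). The form with suffix −1, which starts upstream, averaged 112 ± 31.7 RPM in High, 40.8 ± 0.52 in Low, 37.0 ± 9.84 in Sublow and 13.7 ± 3.27 in Negative cells (SD, n = 3 each). Its log2 difference between High and Low was 1.41 (SE 0.25, adjusted p = 0.00148, limma). Low and Sublow libraries overlapped in this form, with a log2 difference of 0.17 (SE 0.25, adjusted p = 0.627, limma). They overlapped too in the form with suffix +2 (log2 difference 0.35, SE 0.52, adjusted p = 0.625, limma). The entry with suffix +3, listed in 6 libraries at up to 3.72 RPM, did not pass the filter and had its highest mean in Negative cells. It was at 2.61 RPM in High replicate 1 and at 0 in High replicates 2 and 3. The smallest values listed for any entry in those 2 libraries were 3.48 and 5.55 RPM, so the order of this form among populations cannot be read. Counting annotated and shifted entries together, 9 entries of the cluster were tested. Of these, 7 were higher in High than in Low, as were 7.99% of all 588 entries, with a median difference of 1.496 against −0.11 over all entries. All 9 were higher in High than in Sublow, beside 28.1% of all entries, and all 9 higher in High than in Negative, beside 43.9%. In the latter their median was 3.06 against 0.57 over all entries. None was called lower in any comparison of sorted populations. Forms of a hairpin share a precursor. The entries miR-183-3p +1 and miR-183-5p +7 passed the filter through the High libraries alone. The entry miR-183-5p +2 would not have passed without them, as only Low replicate 1 (10.8 RPM) also reached 10 RPM. These counts and medians are therefore a description only.

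The cluster was then set beside other miRNAs known from endocrine, neuronal and sensory cells, a list of 13 of which 11 had an entry and 8 passed the filter. Its most abundant member, miR-375, is known from pancreatic islets, where it acts on insulin secretion. The list also held the miR-7 family, which is enriched in neuroendocrine cells, and miR-132, whose transcription follows neuronal activity. miR-375-3p averaged 123490 ± 10093 RPM in High and 58075 ± 11881 in Low cells (SD, n = 3 each), a log2 difference of 1.10 (SE 0.23, adjusted p = 0.00413, limma). miR-153-3p was higher in High than in Low cells as well, by 2.02 (SE 0.67, adjusted p = 0.0432, limma), but that call was lost when any of 10 libraries was left out (adjusted p up to 0.144 without High replicate 2). The other 6 did not pass between High and Low, so 2 of 8 were called higher, beside 7.99% of all tested entries. Among them miR-7a-1-5p differed by 0.21 (SE 0.26, adjusted p = 0.621, limma) and miR-7b-5p by 0.25 (SE 0.33, adjusted p = 0.636, limma). The median difference of the 8 was 0.66 between High and Low cells. miR-375-3p, miR-7a-1-5p and miR-7b-5p are also the endocrine markers used above.

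Against Negative cells, all 8 companions were higher in High, where 43.9% of entries were. Their median difference was 5.69, and 7.24 over the 5 that were listed above 0 in a Negative library, beside 3.06 for the 9 cluster entries. Some companions passed the filter only through High and Low libraries, so this count too is a description, and the medians rest on the pseudocount of 1 for entries near 0. miR-375-3p fell to 837 ± 256 RPM in Negative cells (SD, n = 3), a log2 difference of 7.24 (SE 0.23, adjusted p = 2.19e-10, limma). miR-7b-5p was at 50.3 ± 24.7 RPM there (SD, n = 3), a difference of 7.66 (SE 0.33, adjusted p = 1.43e-09, limma). miR-132-3p was at 3.15 ± 0.28 RPM (SD, n = 3), a difference of 5.06 (SE 0.32, adjusted p = 4.77e-08, limma), or 3.49 with a pseudocount of 10. miR-7a-1-5p was the companion with the smallest difference, 3.87 (SE 0.26, adjusted p = 9.33e-08, limma). miR-184-3p averaged 308 RPM in High cells and was listed in 1 Negative library, at 0.94 RPM, so its log2 difference depended on the pseudocount, at 7.94 with 1, 10.5 with 0.1 and 4.94 with 10. miR-153-3p, miR-129-1-5p and miR-212-3p were at 84.3, 30.1 and 21.8 RPM on average in High cells and listed at 0 in all Negative libraries.

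The ratio of miR-182-5p to miR-375-3p gives this within libraries. It was chosen after seeing the data and averaged 0.293 ± 0.012 in High, 0.239 ± 0.056 in Low, 0.601 ± 0.10 in Sublow and 5.32 ± 1.31 in Negative cells (SD, n = 3 each). The sorted groups did not overlap in it. The exact permutation test over the sorted libraries gave p = 6.49e-05, the smallest value it can give. As the ratio was picked from differences already seen, this p restates them and is no further support. miR-375-3p thus exceeded miR-182-5p in every High, Low and Sublow library, and miR-182-5p exceeded miR-375-3p in every Negative library.

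**Figure D4:**
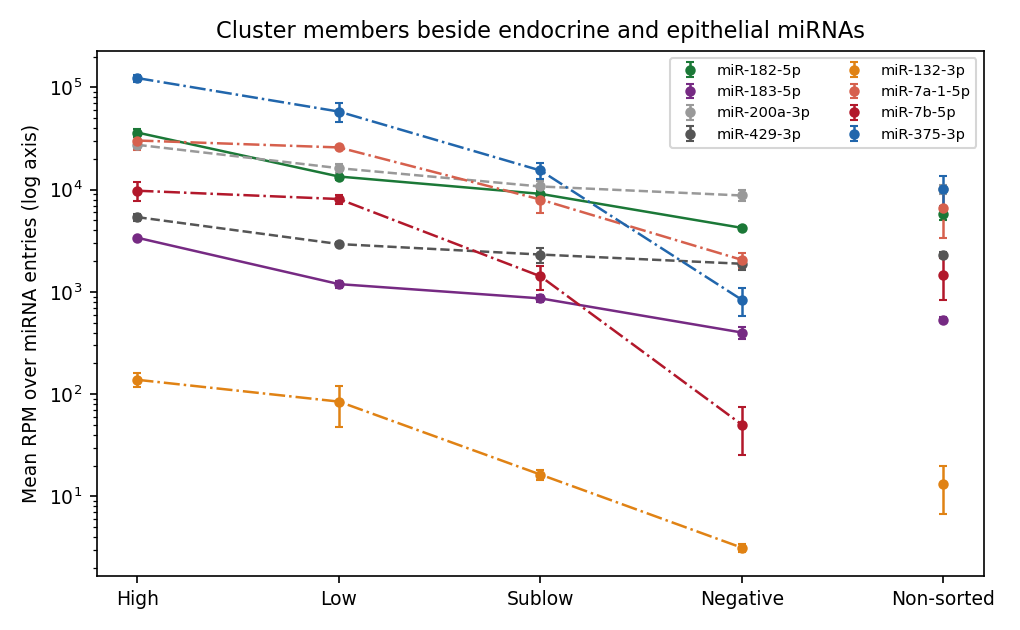
Mean RPM (log axis, bars are SD) of miR-182-5p and miR-183-5p (solid lines), 2 epithelial miRNAs of the miR-200 family (dashed) and 4 endocrine or neuronal miRNAs (dash-dotted) by population, with Non-sorted cells apart. From High to Negative, miR-182-5p falls from 36206 to 4233 RPM, while miR-375-3p falls from 123490 to 837 RPM and miR-200a-3p from 27476 to 8779 RPM.

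The annotated miRNAs most like the cluster across libraries were sought among 250 tested entries by Pearson r of log2(RPM + 1) over the 14 libraries, as a description. With the mean of all 3 members they were miR-532-5p (r = 0.951), miR-200b-3p (0.934), miR-34c-5p (0.920), miR-26a-2-5p (0.918) and miR-324-5p (0.915). This mean takes in the listing of miR-96-5p near the floor. With miR-182-5p and miR-183-5p alone, the order was miR-200a-3p (0.956), miR-429-3p (0.9498), miR-200b-3p (0.948), miR-324-5p (0.941) and miR-139-3p (0.937). The first in this order, miR-200a-3p, averaged 27476 ± 2670 RPM in High, 16236 ± 1732 in Low, 10753 ± 1419 in Sublow and 8779 ± 1065 in Negative cells (SD, n = 3 each). miR-200a, miR-200b and miR-429 are made from a single hairpin cluster and are known for keeping cells epithelial. miR-375-3p had an r of 0.902, and the median over the entries was 0.50. Over the sorted libraries alone, miR-139-3p had a higher r with miR-182-5p and miR-183-5p (0.971) than miR-429-3p and miR-200a-3p (0.957 each). A high r here says that entries share the order of the groups, not the size of the steps. Since these entries were chosen for this likeness, no test of their differences is given.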

How the data were processed

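Small RNA was sequenced from 14 libraries in 5 groups set by the labels. The authors deposited a single table in RPM over miRNA entries (2030 entries, each library summing to 1000000). The genome build is mm9 per the submitters' processing notes, while aligner and counting rules were not given in the sources used here. In 71.2 to 84.8% of low values a whole read count was met within 0.1 read, so no count test was run. Values were analysed as log2(RPM + 1), which understates changes of low entries. Entries with at least 10 RPM in at least 3 libraries were tested (588, of which 275 annotated and 313 shifted) with limma 3.58.1 in R 4.3.3, in a single model of the 5 groups with a mean-variance trend. All tests were two-sided, and adjusted p (Benjamini-Hochberg, all 588 entries) below 0.05 was called. Ratios and shares used exact permutation tests in Python 3.11.15. The procedure was tested on simulated data. Entries named are those of the 3 hairpins, a companion list (values for those past the threshold against Low or Negative, and examples that were not), and the 5 most correlated entries. The members and lists were chosen with earlier results of these data known. Alternatives were the pseudocount, the filter, 3 other scalings, annotated entries only, terms for lane, replicate number and the listing of miR-295-3p, and leaving out each library.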

Additional observations from a re-analysis of the deposited data

How the results depend on the processing

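Both tested members kept direction and call in High vs Low, High vs Sublow, High vs Negative and Low vs Negative under all 25 alternatives, at 1.37 to 1.83, 1.46 to 2.05, 2.14 to 3.19 and 0.42 to 1.72 on the log2 scale. Low vs Sublow fell below the threshold for miR-182-5p after median-ratio rescaling (0.17), the trimmed mean of log ratios (0.033) and quantile normalization (0.27). For miR-183-5p it was 0.067, −0.066 and 0.28 under the same scalings and 0.40 with a lane term. Sublow vs Negative in miR-182-5p was 0.15 after quantile normalization. Non-sorted vs Negative in miR-182-5p lost its call with pseudocount 10 (0.44), no filter (0.44), median-ratio rescaling (0.35), the trimmed mean (0.30), quantile normalization (−0.057), a lane term (0.43) and a term for listing miR-295-3p (0.40). It was 0.32 to 0.56 when single libraries were left out. In miR-183-5p this comparison gained a call with a lane term (0.52) and with the miR-295-3p term (0.48), and it was 0.36 (without Negative replicate 2) to 0.53 (without Negative replicate 3) when single libraries were left out. Sublow vs Non-sorted fell below the threshold at 0.27, 0.48 and 0.21 in miR-182-5p under the 3 scalings, and at 0.29 and 0.50 in miR-183-5p under the first and second. The form of miR-182-5p with suffix −1 changed sign in Low vs Sublow under these scalings (−0.22, −0.35 and −0.20). The cause was not tested.

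Counts of called entries fell with the filter at 100 RPM to 207 (any difference), 100 (High vs Low), 170 (High vs Sublow), 188 (High vs Negative) and 198 (Low vs Negative), and with annotated entries only to 191, 92, 149, 168 and 176, with 105 in Low vs Sublow, 108 in Sublow vs Negative and 68 in Sublow vs Non-sorted, as fewer entries were tested. The trimmed mean gave 134 (Low vs Sublow), 257 (Low vs Negative) and 70 (Sublow vs Non-sorted), and median-ratio rescaling 65 in the last. A lane term gave 159 (High vs Sublow), 239 (High vs Negative), 130 (Low vs Sublow) and 68 (Sublow vs Non-sorted), and no filter 81 in the last. Leaving out 1 library gave 56 (without Non-sorted replicate 2) to 148 in Sublow vs Non-sorted, with 76 without Sublow replicate 3.

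Libraries of the same replicate number share a code in their descriptions, whose meaning the labels leave unstated. Whether same-numbered libraries are paired is therefore not known, and the main model did not pair them. Deviations of same-numbered libraries correlated above 0.1 in 17 of 26 pairs (median 0.33, range −0.35 to 0.78). Of the 14 libraries, 11 correlated best with their own number. With the replicate block 177 entries passed in High vs Low and 399 in High vs Negative, and no call of a member changed. With labels permuted only within a replicate number (13824 assignments, smallest possible exact permutation p 0.00174), chosen after seeing the data, the ratio of miR-182-5p to miR-183-5p had p = 0.594, the shifted share of miR-182-5p p = 0.462 and that of miR-183-5p p = 0.00868. Depth limits miR-96-5p and the 3p arms, which lie near the smallest listed values.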
